A study of Mus musculus with 6 samples.

Results

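The 47 genes described here encode ribosome biogenesis factors, the proteins that make, modify and assemble ribosomal RNA (rRNA) into ribosomal subunits. They were taken by symbol from the 24421 gene entries of a deposited count table, all 47 were found there, and all 47 were among the 11731 genes that passed a filter on low counts and were tested. RNA was sequenced from monocytes sorted from the bone marrow of B6 mice. In 3 libraries the cells had been given 5 ng of GM-CSF (granulocyte-macrophage colony-stimulating factor, which acts on cells of the myeloid line; no volume is stated) for 3 h, and 3 libraries were controls. The control cells are called freshly isolated in one label, while another label describes medium alone or with the cytokine, so that, if the controls were not cultured, time in culture and GM-CSF cannot be told apart. The labels give no age or sex and no further allele or agent. Because they do not say whether the replicates are separate animals or cultures, the p-values reflect the spread among these 6 libraries alone, which may be technical.

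Ribosomes are built in the nucleolus. RNA polymerase I transcribes a long precursor rRNA, small nucleolar ribonucleoproteins (snoRNPs) guide its chemical modification, and a large assembly on the nascent transcript, the small-subunit processome, folds and cuts the part that becomes the 40S subunit. A separate series of particles matures the 60S subunit, and both are then exported to the cytoplasm. The genes for these factors are known as a group that follows cell growth and that the transcription factor MYC can drive. Monocytes from marrow include young cells that have divided recently.

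Of the 47 genes, 45 rose with GM-CSF, none fell, and 2 (Nop10 and Npm3) did not pass the test. Among all 11731 tested genes 64.0% were called, 32.8% higher and 31.2% lower (edgeR quasi-likelihood test, Benjamini-Hochberg adjusted p under 0.05). The median log2 fold change was 1.40 over the 47 genes, against 0.01 over all tested genes, and the middle of the list ran from 0.86 (lower quartile) to 1.74 (upper quartile). In 32 of the 47 the rise was at least 2-fold, which 11.9% of tested genes reached, and in 7 it was at least 4-fold, which 4.40% reached. In the same 45 genes every GM-CSF library lay above every control library, an order found in 35.2% of tested genes (69.6% had groups apart in either direction, and in 34.4% all GM-CSF libraries were lower). Of the 47, 29 lay above the 90th percentile of all log2 fold changes (1.15). Together the 47 genes took 2290, 2186 and 2285 CPM (a gene's reads relative to all gene reads of its library, in the usual CPM unit, scaled by trimmed mean of M values) in control replicates 1 to 3, and 5679, 5131 and 5007 CPM in GM-CSF replicates 1 to 3. The ratio of the group means was 2.34.

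**Figure D1:**
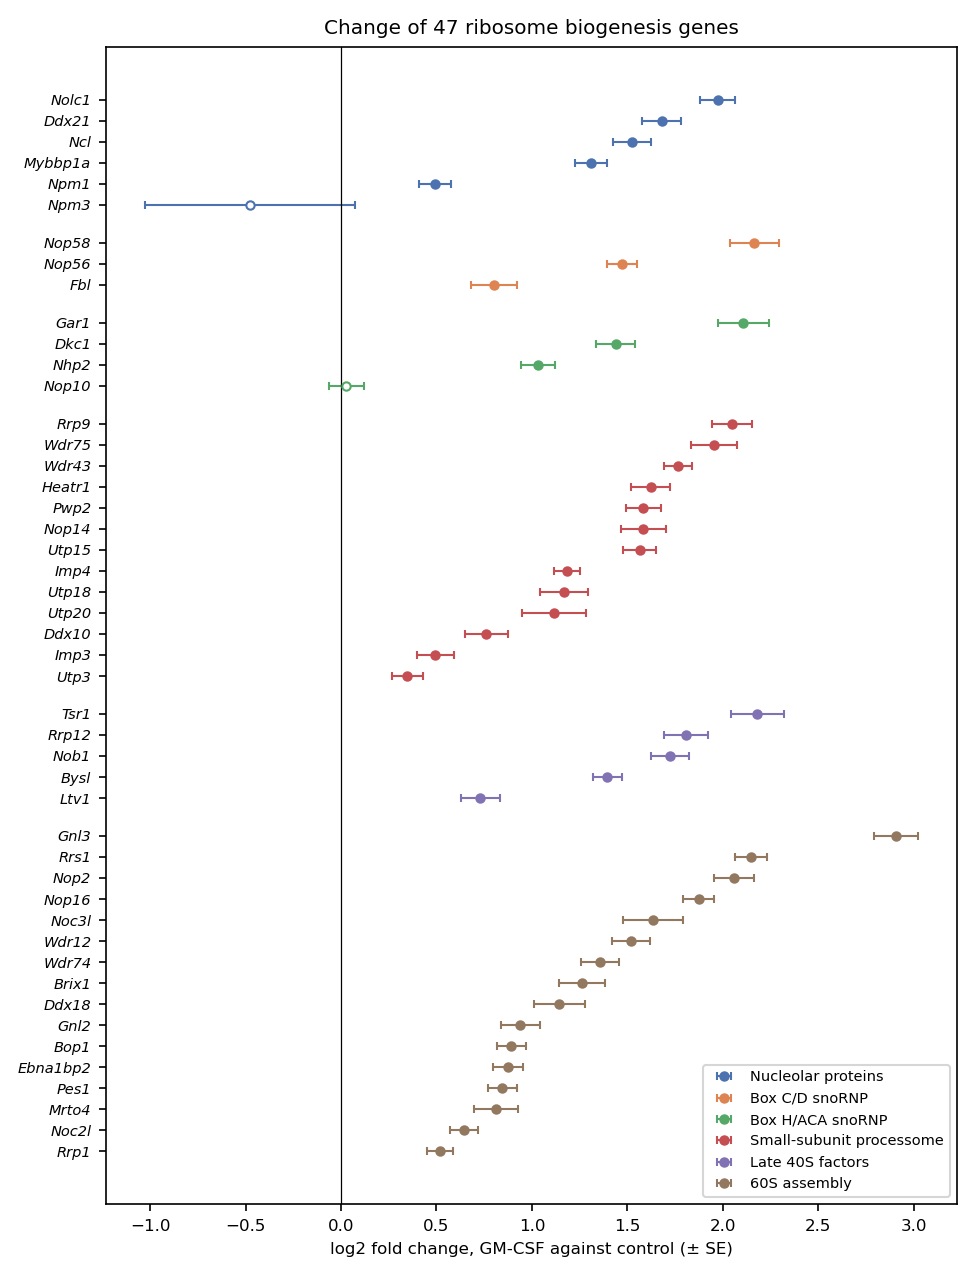
Log2 fold change of each of the 47 genes, GM-CSF against control, with its standard error, grouped by role. Filled points passed the test at an adjusted p under 0.05 and open points (Npm3 and Nop10) did not. The values run from -0.48 to 2.91, and 45 of the 47 lie to the right of 0 and are filled.

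The libraries held 16643228 to 25232956 reads in genes, and between 13378 and 14253 genes had at least 1 read. The lowest number of genes was in GM-CSF replicate 3, though it had the most reads of the GM-CSF libraries (21468929). GM-CSF replicates 1 and 2 had 14003 and 14056 genes with 16780355 and 16643228 reads. Across genes, whose values do not count as independent replicates, log2 CPM correlated at 0.992 among control and 0.980 to 0.990 among GM-CSF libraries, with GM-CSF replicate 3 in the lower pairs. The monocyte genes Csf1r and Ly6c2 were at 1447 and 4071 CPM in control libraries and at 1646 and 3216 CPM in GM-CSF libraries. All 9 monocyte markers were detected, 2 were higher and 5 lower. Others changed more, with Cd14 going from 39.7 to 855 CPM (log2 fold change 4.43), Cx3cr1 from 480 to 42.8 CPM (-3.49) and Ccr2 from 1873 to 522 CPM (-1.84). The mean of the summed level of the 9 was 65002 CPM without and 28939 CPM with GM-CSF, most of it from Lyz2 (55932 and 21451 CPM). In bulk RNA, fewer cells of a type and less RNA per cell cannot be told apart. Of 12 genes listed for neutrophil granules, 7 were lower and 1 higher. Their summed level ran from 28807 to 39106 CPM without and from 16822 to 20842 CPM with GM-CSF. S100a8 and S100a9 gave means of 8112 and 6579 CPM of this sum without and 3589 and 2914 CPM with GM-CSF. The higher gene was Ctsg (0.31). Mpo (4147 and 4686 CPM), Elane (2303 and 2466 CPM), Prtn3 (692 and 691 CPM) and Mmp9 (4.79 and 3.28 CPM) were not called. Of 12 genes of mitosis and cell division, 8 were lower and none higher, with sums of 2370 to 2718 CPM without and 1878 to 2076 CPM with GM-CSF, so that they moved opposite to the ribosome biogenesis genes. B cell markers summed to 62.2 to 75.5 CPM without and 34.4 to 44.8 CPM with GM-CSF (2 of 6 tested lower, none higher), and erythroid markers to 2.22 to 2.99 and 0.468 to 1.15 CPM (2 of 2 tested lower). All 4 globin entries held 0 reads. As reads that were not unique were left out of the counts, this cannot show that globin RNA was absent. T and NK cell markers summed to 175 to 229 CPM without and 171 to 192 CPM with GM-CSF (none of 2 tested called), nearly all of it from Nkg7, with Cd3e under 1 CPM in both groups. The mean summed level of every marker list was lower in GM-CSF libraries, though for the T and NK list the groups overlapped. The part of cell composition in the rise of the ribosome biogenesis genes was not tested.

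Of the 6 nucleolar proteins that act at several steps, 5 rose. Ncl encodes nucleolin, a major RNA-binding protein of the nucleolus that acts from transcription onward, and stood at 171, 175 and 184 CPM in control replicates 1 to 3 and at 584, 501 and 440.2 CPM in GM-CSF replicates 1 to 3 (log2 fold change 1.52 ± 0.10, SE; adjusted p = 2.49e-07). The groups were well apart, and GM-CSF replicate 1 was the highest library. Nolc1, a nucleolar phosphoprotein that chaperones snoRNPs, went from 42.3, 36.3 and 42.2 CPM to 171, 148 and 155 CPM (1.97 ± 0.09; adjusted p = 2.08e-08), the largest rise of the 6 genes in this group. Ddx21, an RNA helicase that links polymerase I transcription with rRNA processing, went from 25.3, 23.5 and 22.5 CPM to 85.4, 74.0 and 69.5 CPM (1.68 ± 0.10). Mybbp1a, which encodes a nucleolar protein that regulates transcription, including that of rRNA, rose by 1.31 ± 0.09 on the log2 scale.

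The nucleophosmin family behaved less evenly. Npm1 encodes nucleophosmin, an abundant histone and ribosome chaperone that shuttles between nucleolus and cytoplasm. It rose from 106, 110.0 and 108 CPM to 167, 152 and 137 CPM, a log2 fold change of 0.49 ± 0.08 (adjusted p = 0.000365) that was among the smallest in the list. Its relative Npm3 had few reads, 148, 142 and 134 in control and 96, 117 and 12 in GM-CSF libraries, or 6.24, 5.61 and 6.34 CPM against 5.80, 6.96 and 0.561 CPM. GM-CSF replicates 1 and 2 lay close to the controls and replicate 3 far below every other library, so the groups overlapped and the test was not passed (-0.48 ± 0.55; adjusted p = 0.465). Without GM-CSF replicate 3 the value was 0.083, and with limma-voom on all libraries it was -1.24. The related pseudogene entry Npm3-ps1 held 20 reads in that library, against 35 and 40 in the other GM-CSF libraries and 44 to 47 in controls. Reads of Npm3 and its copy may be split or left out.

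Both classes of snoRNP were represented. Box C/D snoRNPs add methyl groups to rRNA sugars, and their 3 core genes here all rose. Nop58, a scaffold subunit, went from 39.4, 35.3 and 38.7 CPM to 208, 153 and 148 CPM (2.16 ± 0.13; adjusted p = 1.20e-07). Its partner scaffold Nop56 went from 76.1, 75.5 and 85.2 CPM to 231, 214 and 210.2 CPM (1.47 ± 0.08). Fbl, the gene of the methyltransferase fibrillarin, changed least, from 13.2, 13.2 and 15.1 CPM to 24.5, 22.4 and 25.2 CPM (0.80 ± 0.12; adjusted p = 0.000134). No control library of the 3 genes reached a GM-CSF library.

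Box H/ACA snoRNPs convert uridine to pseudouridine and have 4 core subunits, of which 3 rose. Gar1 went from 9.53, 8.58 and 11.5 CPM to 45.1, 38.4 and 43.8 CPM (2.11 ± 0.13; adjusted p = 1.96e-07). Dkc1, which encodes the pseudouridine synthase dyskerin that also binds telomerase RNA, went from 49.9, 48.7 and 53.8 CPM to 155, 139 and 119 CPM (1.44 ± 0.10). Nhp2, an RNA-binding subunit, rose by 1.03 ± 0.09. Nop10, the smallest of these proteins, was at 108, 88.5 and 96.5 CPM in control and 101, 92.3 and 106 CPM in GM-CSF libraries, with overlapping groups (0.03 ± 0.09; adjusted p = 0.804). The value fell below 0 under upper quartile scaling (-0.089) and under a correction for transcript GC content (-0.052), and it passed the threshold in none of the alternatives run.

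**Figure D2:**
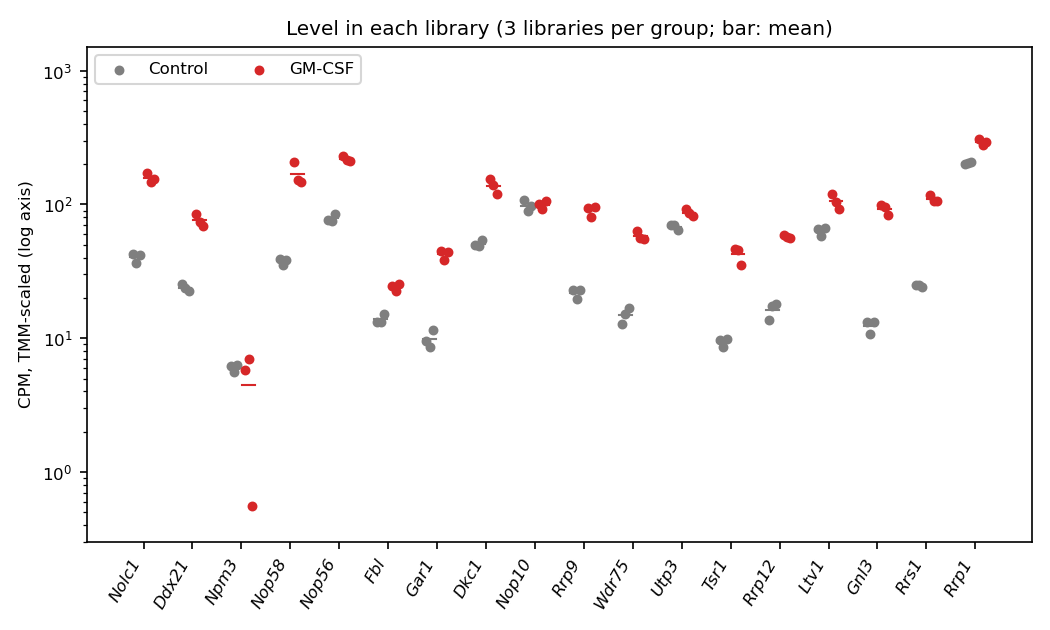
Level of 18 of the genes in each library, in TMM-scaled CPM on a log axis, with grey points for the 3 control and red points for the 3 GM-CSF libraries and a bar at each group's mean. The genes are those with the largest rises and the smallest change in each role group. In 16 of them all red points lie above all grey points, and in Npm3 and Nop10 they overlap.

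Levels can be compared between subunits only per length, here as CPM per kilobase of annotated coding sequence, which leaves out untranslated regions from the length though not from the reads. On this scale the control level of Nop10 was 509 ± 52.3 (SD, n = 3), that of Nhp2 139.6 ± 14.99, that of Dkc1 33.3 ± 1.74 and that of Gar1 14.2 ± 2.15, a 35.8-fold span between the highest and the lowest subunit. With GM-CSF the same genes stood at 519 ± 35.3, 285 ± 11.5, 90.2 ± 11.8 and 61.2 ± 5.09, a span of 8.48-fold with the same order. The 4 transcripts thus lay closer together in GM-CSF libraries, and the least abundant one changed most. The span among the 3 box C/D genes was wider with GM-CSF. It leaves out Nhp2l1, which also encodes a box C/D protein and has no value per length here. Its size therefore cannot be set beside that of the 4 box H/ACA genes. Fbl was the lowest of its 3 at 14.1 ± 1.10 in control and 24.5 ± 1.51 in GM-CSF libraries, and the span to the highest, Nop56, went from 3.22-fold to 5.13-fold. For a fixed pair of genes, the change in their ratio is free of the choice of length. Which subunits are highest and lowest, and so the size of a span and of its change, can depend on that choice. The spans were not tested.

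The small-subunit processome supplied 13 genes, and all 13 rose (median log2 fold change 1.57, range 0.35 to 2.05). Rrp9, a component of the U3 snoRNP that anchors the assembly on the precursor rRNA, went from 22.9, 19.5 and 23.1 CPM to 93.8, 80.7 and 96.0 CPM (2.05 ± 0.11; adjusted p = 4.11e-08). Wdr75, one of the subunits that bind the nascent precursor first, went from 12.9, 15.2 and 16.8 CPM to 63.0, 55.8 and 54.9 CPM (1.95 ± 0.12; adjusted p = 1.46e-07). Other genes of that early subcomplex were Wdr43 (1.76 ± 0.07), Heatr1 (1.62 ± 0.10) and Utp15 (1.57 ± 0.09), with folds of 3.40, 3.08 and 2.96. Pwp2, a scaffold of another processome module, rose by 1.58 ± 0.09 and Utp18 of the same module by 1.17 ± 0.13. Nop14, which serves the maturation of 18S rRNA, rose by 1.58 ± 0.12.

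The other 5 processome genes rose by 0.35 to 1.18 on the log2 scale. Imp4 and Imp3 encode partners in one trimeric complex that pairs U3 with the precursor. Imp4 rose from 99.2 ± 0.839 to 225 ± 9.46 CPM (SD, n = 3 per group; 1.18 ± 0.07) and Imp3 from 36.3 ± 2.75 to 51.0 ± 3.80 CPM (0.49 ± 0.10; adjusted p = 0.00106). Per coding length Imp3 was the lower of the pair and rose less. The span between them went from 1.73-fold in control to 2.79-fold in GM-CSF libraries. The very large scaffold gene Utp20 was the least abundant of the 47 per length, at 0.987 ± 0.166 CPM per kilobase in control and 2.14 ± 0.322 in GM-CSF libraries (1.12 ± 0.17), and the helicase gene Ddx10 rose by 0.76 ± 0.11. Utp3 had the smallest change of the 13, from 70.1, 69.6 and 64.2 CPM to 92.6, 85.9 and 81.3 CPM (0.35 ± 0.08; adjusted p = 0.00331). Even there the lowest GM-CSF library was above the highest control.

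All 5 genes for late steps of the 40S subunit rose (median 1.72). Tsr1, which encodes a GTPase-like factor that blocks premature joining of the subunits, went from 9.78, 8.54 and 9.80 CPM to 46.8, 45.5 and 35.3 CPM (2.18 ± 0.14; adjusted p = 1.87e-07). Rrp12, which takes part in export of pre-ribosomes, went from 13.8, 17.4 and 17.99 CPM to 58.6, 57.4 and 55.9 CPM (1.81 ± 0.11). Nob1, the nuclease that makes the final cut at the end of 18S rRNA, rose by 1.72 ± 0.10, and Bysl, the mammalian bystin that helps release 40S precursors from the nucleolus, by 1.40 ± 0.08. Ltv1, needed for building the beak of the 40S subunit, changed least, from 65.4, 58.0 and 66.9 CPM to 119, 104 and 92.3 CPM (0.73 ± 0.10; adjusted p = 9.82e-05).

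Among the 16 genes for 60S assembly, all rose (median 1.20, range 0.52 to 2.91). Gnl3, the gene of the nucleolar GTPase nucleostemin, known from stem and proliferating cells, had the largest rise of the 47. It stood at 13.2, 10.7 and 13.1 CPM in control and at 98.9, 95.9 and 82.6 CPM in GM-CSF libraries (2.91 ± 0.12, a 7.50-fold rise; adjusted p = 7.15e-09). Rrs1, which helps bring the 5S ribonucleoprotein into the particle, went from 25.04, 25.1 and 24.2 CPM to 118, 107 and 105 CPM (2.15 ± 0.08; adjusted p = 6.18e-09). Nop2, an rRNA cytosine methyltransferase, rose by 2.06 ± 0.10 and Nop16 by 1.87 ± 0.08. Gnl2, which encodes a GTPase related to nucleostemin, rose by 0.94 ± 0.10. On the scale per coding length, Gnl2 went from 20.5 ± 1.91 to 39.3 ± 3.85 and Gnl3 from 7.64 ± 0.887 to 57.3 ± 5.35 (SD, n = 3 per group), so that Gnl3 was the lower of the pair in control and the higher in GM-CSF libraries.

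The PeBoW complex, which is needed for processing of the 60S rRNAs, consists of the products of Pes1, Bop1 and Wdr12. Wdr12 rose from 21.9 ± 1.78 to 62.7 ± 3.81 CPM (1.52 ± 0.10), Bop1 from 92.5 ± 3.88 to 172 ± 11.5 CPM (0.89 ± 0.08) and Pes1 from 84.4 ± 2.23 to 152 ± 11.2 CPM (0.84 ± 0.08). The subunit with the lowest level per length, Wdr12, had the largest rise, and the span between subunits went from 2.77-fold in control to 1.74-fold in GM-CSF libraries. Other 60S genes were Noc3l (1.63 ± 0.16) and Noc2l (0.64 ± 0.07), whose products belong to related nucleolar complexes, Wdr74 (1.36 ± 0.10), Brix1 (1.26 ± 0.12), the helicase gene Ddx18 (1.14 ± 0.13), Ebna1bp2 (0.88 ± 0.08) and Mrto4 (0.81 ± 0.12). Mrto4 encodes a factor that holds the place of the ribosomal stalk. Rrp1 had the smallest change, from 202, 202 and 206 CPM to 307, 276 and 293 CPM (0.52 ± 0.07; adjusted p = 5.26e-05).

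**Figure D3:**
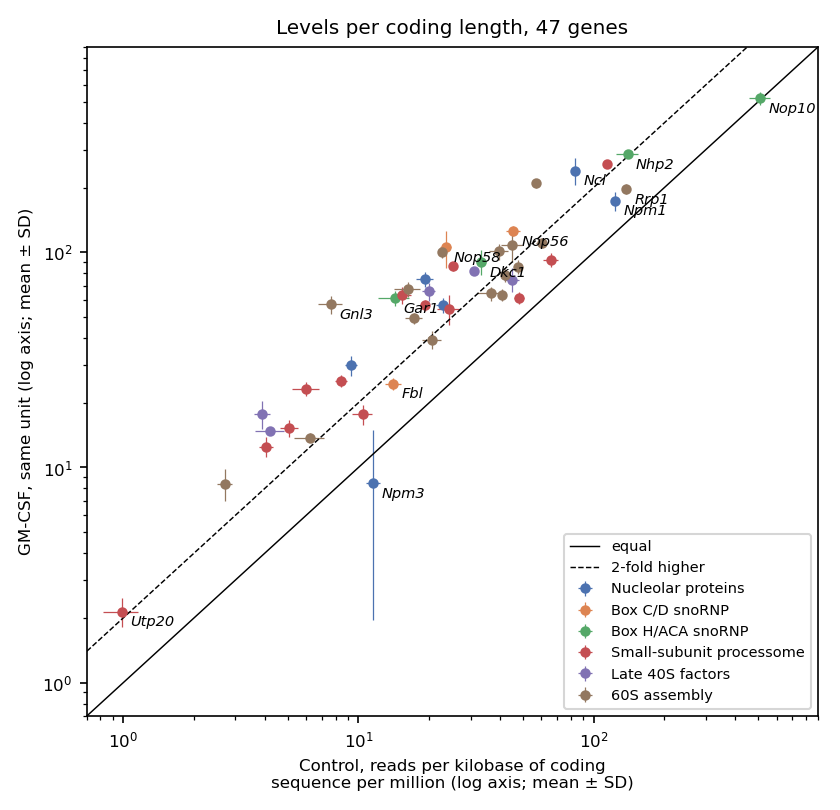
Mean level of each of the 47 genes in control (horizontal) and GM-CSF libraries (vertical), in CPM per kilobase of coding sequence on log axes, with SD over 3 libraries. The solid line marks equal levels and the dashed line a 2-fold rise. Nop10 lies on the solid line at 509 and 519, Npm3 below it with a wide SD, and Gnl3 farthest above the dashed line at 7.64 and 57.3.

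Genes with lower control levels tended to have larger rises. Over the 47 genes, Spearman's rho between the log2 fold change and the control level was -0.45 in CPM and -0.51 per coding length. The points share the same 6 libraries and the control level enters both measures. Over all 11731 tested genes rho with control CPM was -0.06. Transcript GC content was near that of other genes (median 48.4% over the 47 and 49.6% over 11287 tested genes with an annotation), and its rho with the rise was -0.05 over the 47. The median level of the 47 went from 37.8 CPM in control to 92.5 CPM in GM-CSF libraries, beside 26.8 and 28.0 CPM over all tested genes.

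The replicates were not even. GM-CSF replicate 1 was the highest of the GM-CSF libraries in 35 of the 47 genes, replicate 3 in 9 and replicate 2 in 3. Among control libraries, replicate 1 was the highest in 23 of the genes, replicate 3 in 17 and replicate 2 in 7. These counts were not made over all tested genes, so whether they are particular to the 47 is not known. A related value, GM-CSF replicate 3 over the mean of GM-CSF replicates 1 and 2, was made for both sets. Its median was 0.929 over the 47 and 0.999 over all tested genes. The median coefficient of variation over the 47 was 7.71% in GM-CSF and 7.27% in control libraries, against 10.5% and 8.22% over all tested genes. Leaving out GM-CSF replicate 1 gave 45 higher and none lower, as did leaving out any other single library.

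Of the 47 genes, 18 share exonic bases with another annotated gene, in each case on the opposite strand, and whether strand was used in counting is not given in the sources used here. The overlaps ran from 5 bases (Nop56 with Idh3b) to 1240 bases (Tsr1 with Srr). Srr did not pass the test, with a log2 fold change of -0.53. The next longest were Noc2l with Samd11 (598 bases), which was under 0.1 CPM in both groups, and Bysl with Ccnd3 (361 bases), whose log2 fold change was -0.16. The 29 genes with no such overlap had a median log2 fold change of 1.36 and 28 of them rose, and the 18 with one had a median of 1.42.

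Several of these genes carry snoRNA genes within their own span on the same strand, by the GENCODE M21 annotation on GRCm38. There were 7 such hosts among the 47 (14.9%), namely Ncl, Nop56, Nop58, Gnl3, Dkc1, Tsr1 and Wdr43, with 21 annotated snoRNA genes between them, while 226 of 11287 annotated tested genes (2.00%) were hosts. Gnl3 holds Snord69 and Snord19, Nop56 holds Snord110 and Snord57, and Nop58 holds Snord70 and Snord11, all of the box C/D kind. The 7 hosts had a median log2 fold change of 1.76 and the other 40 genes one of 1.22. The other 219 tested host genes had a median of 0.27, with 101 higher and 38 lower. The snoRNAs themselves, which lack poly(A) tails, are not measured by these libraries. On GRCm38, Gnl3 lies on chromosome 14 at 31012433 to 31019152 (minus strand), Nop56 on chromosome 2 at 130274430 to 130279313 (plus) and Nop58 on chromosome 1 at 59684971 to 59719044 (plus). Nop10 lies on chromosome 2 at 112261926 to 112263269 (plus) and Npm3 on chromosome 19 at 45747734 to 45749591 (minus). All 5 are protein-coding.

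Promoter windows of 300 bases, 250 before and 50 after the annotated start, were available from RefSeq on GRCm38.p6 for 41 of the 47 genes, 44 windows in all. The E-box CACGTG, which MYC and MAX bind and which reads the same on both strands, was present in 9 of the 44 windows (20.5%), in 10.1% of 11442 windows of tested genes and in 7.15% of all 32851 windows. It was found at Imp4, Nop2, Ltv1, Utp20, Pes1, Mybbp1a, Tsr1, Utp18 and Wdr43. These 9 genes had a median log2 fold change of 1.18 and the 32 others with a window 1.49, a difference that was not tested. The similar sequences CACGCG and CATGTG (either strand) were in 29.5% and 20.5% of the 44 windows. In windows of tested genes their shares were 17.0% and 8.62%. The sequence CCGGAAG (either strand), the core that ETS factors bind, was in 38.6% of the 44 windows and 18.2% of windows of tested genes. TTCNNNGAA, the spacing that STAT5 recognises downstream of the GM-CSF receptor, was in 6.82% and 7.06%, and TATAAA in 4.55% and 6.98%. These were picked from 16 sequences searched, after their shares were seen. A match is a description of letters, not a site shown to be bound. GC content of the windows was 59.3% (median over the 44) and 60.7% over windows of tested genes.

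The stretches around the E-box are shown for 4 genes to let its surroundings be compared, with the E-box in capitals, 5′ to 3′ on the gene's strand. They lie at chr6:125131811-125131840 (Nop2, plus), chr11:93885769-93885798 (Utp18, minus), chr1:34439696-34439725 (Imp4, plus) and chr11:74898092-74898121 (Tsr1, plus), and the first base of the E-box is at -60, -20, -121 and 25 from the start.
Nop2: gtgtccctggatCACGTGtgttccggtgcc
Utp18: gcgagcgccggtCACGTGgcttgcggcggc
Imp4: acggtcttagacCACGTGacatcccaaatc
Tsr1: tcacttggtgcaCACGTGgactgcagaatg

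The 150 bases before the RefSeq start are shown for Gnl3, the gene with the largest rise, for Nop2, which rose 4.17-fold, and for Nop10, which did not pass the test. The RefSeq start of Gnl3 differs from the GENCODE start, so part of its stretch lies within the GENCODE span given above. Capitals mark CACGTG and CCGGAAG. They lie at chr14:31019132-31019281 (Gnl3, minus), chr6:125131733-125131882 (Nop2, plus) and chr2:112261776-112261925 (Nop10, plus).
Gnl3: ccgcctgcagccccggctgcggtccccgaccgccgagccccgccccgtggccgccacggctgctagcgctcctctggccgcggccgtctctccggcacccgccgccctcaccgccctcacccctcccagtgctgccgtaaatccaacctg
Nop2: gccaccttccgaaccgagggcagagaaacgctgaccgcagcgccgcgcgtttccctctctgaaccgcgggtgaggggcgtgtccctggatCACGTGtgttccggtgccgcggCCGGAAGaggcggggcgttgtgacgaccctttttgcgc
Nop10: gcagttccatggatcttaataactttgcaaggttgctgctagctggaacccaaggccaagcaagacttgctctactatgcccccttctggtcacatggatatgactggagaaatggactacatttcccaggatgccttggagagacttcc
Neither sequence was present in the stretches of Gnl3 and Nop10, while Nop2 holds both within this stretch. Nop58, which rose 4.48-fold and is not shown, held neither in the 150 bases before its start. The similar sequences CACGCG and CATGTG are not marked. Both were present in the 300-base window of Nop10 and absent from those of Gnl3 and Nop2.

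Further genes of the pathway, 123 in 5 lists, mostly rose as well: 107 were higher, 3 lower and 13 not called (median log2 fold change 0.87). Of 37 other factors of the small subunit, 33 rose and none fell, led by Cirh1a, a processome subunit (27.2 ± 0.0564 to 122 ± 9.27 CPM; 2.16 ± 0.09), and Rcl1 (1.88 ± 0.11), and Utp14b (0.73), Wdr3 (0.19), Rrp36 (0.19) and Emg1 (0.16) did not pass. Utp14b passed with limma-voom (0.77), with the replicate block (0.78), without GM-CSF replicate 3 (0.87) and without control replicate 1 (1.11). Wdr3 passed with the replicate block (0.20), without GM-CSF replicate 3 (0.25) and without control replicate 2 (0.26). Of 46 other 60S factors, 39 rose and none fell, led by Ppan (2.08 ± 0.10) and Ccdc86 (2.01 ± 0.08). All 8 snoRNP assembly genes rose, among them Znhit3 (1.54 ± 0.11) and Nhp2l1 (1.13 ± 0.10), which encodes a protein shared by the box C/D snoRNPs and the spliceosome.

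Genes for transcribing rRNA and for trimming it moved less. Of 17 rRNA transcription genes, 14 rose (median 0.57), with Polr1b, the second-largest subunit of RNA polymerase I, at 16.8 ± 0.507 and 58.4 ± 2.93 CPM (1.80 ± 0.09) and Rrn3, which recruits the polymerase, at 1.38 ± 0.09. Taf1b, of the promoter selectivity factor (-0.39 ± 0.10), and the terminator-binding gene Ttf1 (-0.33 ± 0.11; adjusted p = 0.0237) fell, and Baz2a (-0.0035), of a complex that silences rRNA genes, did not pass. The Ttf1 call was lost without any one of GM-CSF replicate 3 (-0.24) and control replicates 1, 2 and 3 (-0.33, -0.32 and -0.35). Of 15 genes of the RNA exosome and its cofactors, which trim precursor ends, 13 rose (median 0.49), led by the nuclease gene Dis3 (1.41 ± 0.12) and Exosc2 (1.15 ± 0.09), Exosc5 fell (-0.40 ± 0.09) and Exosc4 (0.12) did not pass.

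**Figure D4:**
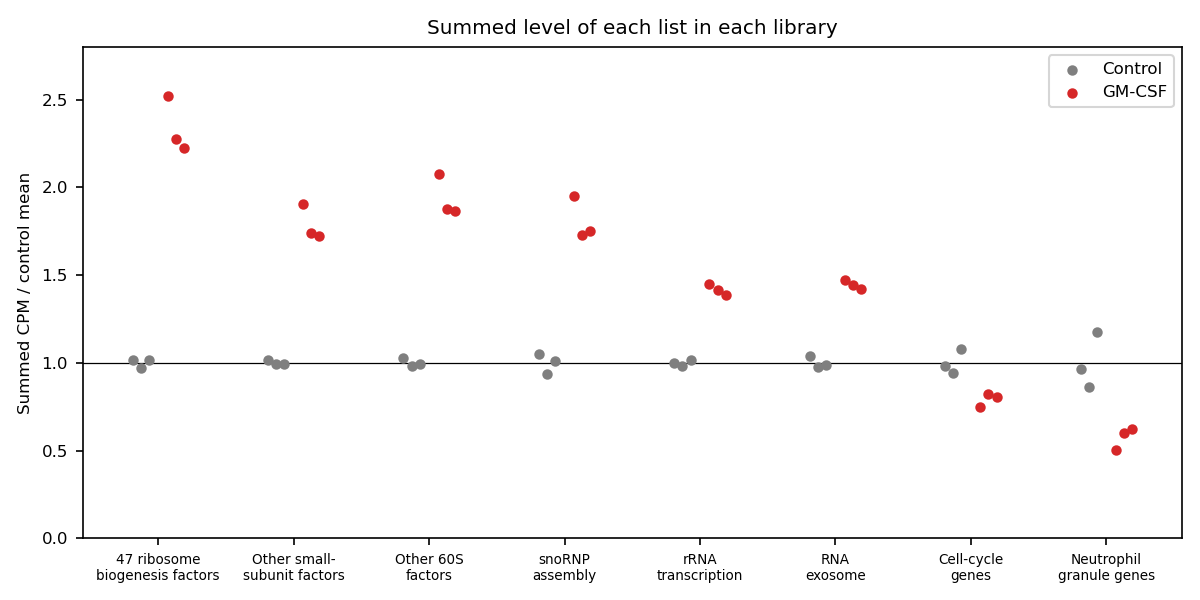
Summed CPM of each gene list in each library, divided by the list's mean over the 3 control libraries (grey, control; red, GM-CSF). The 47 genes lie highest, with a ratio of group means of 2.34, and the lists of cell-cycle and neutrophil granule genes lie below 1 in all GM-CSF libraries, with ratios of 0.792 and 0.577.

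The genes for the structural proteins of the ribosome, lists chosen by symbol after the values were seen, had medians near 0. Of 74 cytosolic ribosomal protein genes tested, 12 were higher, 8 lower and 54 not called (median log2 fold change 0.06), and of 76 mitochondrial ribosomal protein genes 31 were higher and 16 lower (median 0.07). Both medians turned sign with upper quartile scaling (-0.054 and -0.044), under which 18 cytosolic genes were lower. The number of cytosolic genes called lower was 2 without GM-CSF replicate 2, 2 without control replicate 1 and 3 without control replicate 3. Cytosolic ribosomal protein genes have many near-identical pseudogene copies, so their counts are uncertain where reads were not unique. The difference between these lists and the biogenesis factors was not tested, and their counts and medians are given for description.

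**Figure D5:**
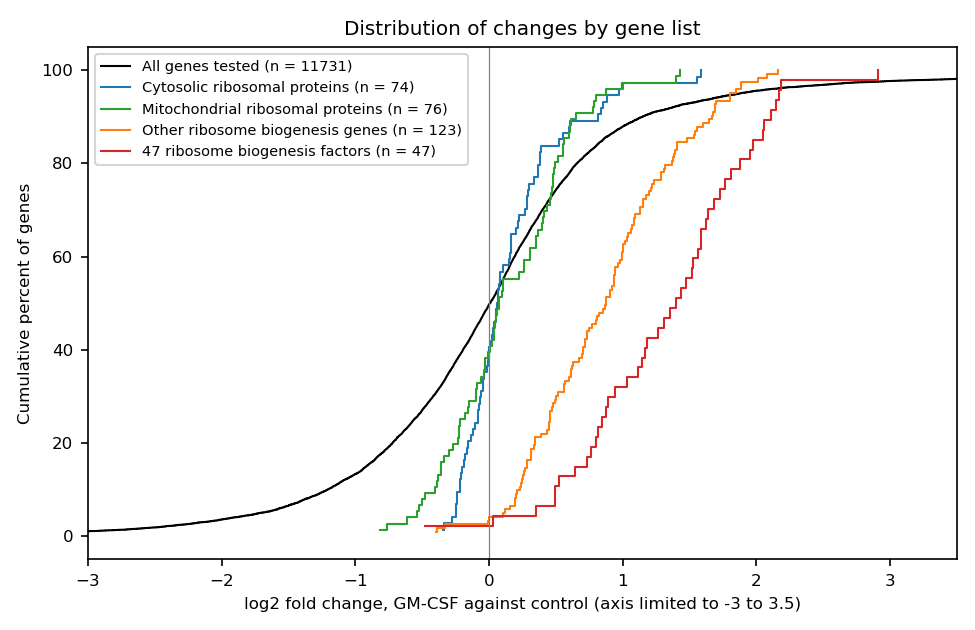
Cumulative share of genes (vertical, percent) by log2 fold change, GM-CSF against control (horizontal, limited to -3 to 3.5), for the 47 factors, 123 other ribosome biogenesis genes, cytosolic and mitochondrial ribosomal protein genes and all 11731 tested genes. The curve of the 47 lies farthest right (median 1.40), that of the 123 between (0.87), and both ribosomal protein curves have medians near 0 (0.06 and 0.07).

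The MYC network was mixed while Myc itself rose strongly. Myc went from 18.8 ± 2.94 to 298 ± 35.1 CPM (3.99 ± 0.13; adjusted p = 1.69e-09), a rise larger than that of any of the 47 genes. Mycl rose as well from a low level (0.609 ± 0.3998 to 3.59 ± 0.799 CPM; 2.53 ± 0.46). Of the genes for partners of MAX that oppose MYC, Mxd1 rose (1.14 ± 0.12), while Mxd3 (-2.004 ± 0.14), Mxd4 (-1.10 ± 0.14) and Mnt (-0.72 ± 0.22) fell. In all, 3 of 11 tested network genes rose, 3 fell and 5 were not called: Mga (0.40), Max (0.31), Mlxip (0.27), Mlx (0.14) and Mxi1 (-0.14). Of these, Max (0.49), Mga (0.58) and Mxi1 (-0.26) passed without GM-CSF replicate 3, and Mlxip (0.39) without GM-CSF replicate 1. Mga also passed without a filter on low counts (0.39), with a robust prior (0.40) and with the replicate block (0.38), and Mlxip with the replicate block (0.26) and the GC correction (0.30). Whether Myc drove the rise of the ribosome biogenesis genes was not tested.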

How the data were processed

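Messenger RNA of 6 libraries, 3 GM-CSF and 3 control, was compared. Poly(A) RNA, prepared with a Norgen kit and DNase, was read in pairs, per the labels' protocols. The authors deposited raw counts per gene symbol. Tools in the submitters' processing notes, with no role stated, are HTSeq 0.6.1p1, STAR 2.5.2a, edgeR and Trim Galore 0.4.4, and the build is mm10. For the annotation and strand setting, nothing was given in the sources used here. Entries that name no gene (outside genes 7.82% to 9.72% of reads, ambiguous 1.44% to 1.53%, not unique 18.0% to 19.6%) were left out, and a count of 3 equals 0.119 to 0.180 CPM.

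The test was that of edgeR 4.0.16 in R 4.3.3 (TMM, filterByExpr with minimum count 10 and minimum total 15, two-sided quasi-likelihood F test, group as the only term, Benjamini-Hochberg over 11731 genes, threshold 0.05). Each SE came from the size of the log2 fold change over the root of its F value. CPM values are TMM-scaled. Alternatives were RLE and upper quartile scaling, library size alone, no filter, a filter of 1 CPM in 3 libraries, DESeq2 1.42.0, limma-voom (limma 3.58.1), a robust prior, a replicate block, removal of the 10 most abundant genes, a transcript GC correction (loess, span 0.5) and leaving out each library. The procedure was also run on simulated counts in which few genes changed, evenly in both directions. It was not checked under a change as widespread as the one here. Coordinates, coding lengths and snoRNA genes came from GENCODE M21 on GRCm38, promoter windows from RefSeq on GRCm38.p6.

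The members and lists were chosen with earlier results of these data known. Values of every library are given for the 2 largest rises and the smallest change in each role group and for members not called. In each pathway list the 2 largest changes in each direction are named, among called genes whose mean log2 CPM reached 1. Genes behind counts of 5 or fewer, Ncl and Npm1 by library, overlapping genes, and monocyte and neutrophil markers were named after their values were seen.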

Additional observations from a re-analysis of the deposited data

How the results depend on the processing

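The number of the 47 genes called higher was 45 and the number called lower 0 under each of the 17 alternatives, including edgeR without each library in turn, DESeq2 and limma-voom. The members' median log2 fold change ran from 1.28 (upper quartile scaling, which moved the median of all genes to -0.11) to 1.42. Values near 0 changed sign. Nop10 was -0.089 with upper quartile scaling, -0.052 with the GC correction and, with 1 library left out, from -0.042 (without control replicate 2) to 0.11, and -0.0070 without GM-CSF replicate 3. Npm3 was -1.24 with limma-voom, -0.74 with the replicate block and, with 1 library left out, ran from -0.97 (without GM-CSF replicate 2) to 0.083 (without GM-CSF replicate 3). Baz2a was 0.0040 with the GC correction and ran from -0.052 to 0.052 with 1 library left out, where GM-CSF replicate 1 gave 0.045 and GM-CSF replicate 3 gave 0.0049 when left out. Their cause was not tested.

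With the replicate number as a block, 45 of the 47 genes were higher and 0 lower. The deviations of same-numbered libraries from their group means correlated at 0.0727, 0.00984 and 0.00381, and those of differently numbered libraries at -0.0469 to 0.0304. With 3 libraries per group these values cannot decide whether same-numbered libraries share more than a number. The SE of Npm3 was 0.55, and its reads were 12 in GM-CSF replicate 3 against 96 and 117 in the other GM-CSF libraries.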
